A study of Mus musculus with 11 samples.

Results

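The 9 genes described here are ones that the mammary epithelium secretes or carries on its surface, followed across the 11 RNA-sequencing libraries of the MamBo mouse mammary carcinoma lines. They are Wfdc18, Wfdc2, Bpifb1, Ly6d, Lcn2, Ltf, Csn3, Muc1 and Mfge8, 9 of the 21846 genes counted. They were chosen by their levels across these same 11 libraries, so their differences between groups are given as a description, with no test. All 9 had enough counts to enter both fitted comparisons.

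Most of these genes code for secreted proteins. Csn3 codes for kappa-casein, the casein that keeps milk micelles from aggregating. Wfdc18 and Wfdc2 code for small secreted proteins of the whey acidic protein family, and Bpifb1 for a BPI fold protein of mucosal secretions. Lcn2 codes for lipocalin 2, which binds the siderophores by which bacteria collect iron, and Ltf for lactoferrin, an iron-binding protein of milk and of neutrophil granules. Mfge8 codes for the milk fat globule protein that bridges phosphatidylserine and integrins. Ly6d and Muc1 code for surface proteins, a GPI-anchored member of the Ly6 family and an apical transmembrane mucin. In the gland, milk protein genes respond to prolactin through its receptor and STAT5, and are used by luminal alveolar cells rather than by mesenchymal cells.

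The lines came from mammary tumors of virgin female FVBhuHER2 mice, which carry a human HER2 transgene, and 1 library was made for each culture. The 5 HER2-positive libraries were MamBo89, from tumor A (untreated, 60 days with 30 µg/ml trastuzumab, and 30 days with it followed by 30 days without), a further untreated library labelled AG3, and untreated MamBo43, from tumor B. AG3 was taken as the HER2-positive MamBo89 clone that the methods list, because each of the other MamBo89 libraries answers to a culture named there. The 6 HER2-negative libraries were MamBo43 TRT, which is MamBo43 after each of both trastuzumab schedules, and MamBo38, a line grown from a tumor that MamBo43 formed in a mouse (2 untreated cultures and 1 under each schedule). All of the lines therefore started from cells with the transgene, and MamBo38 against MamBo89 is also tumor B against tumor A. By a code in the library names, 3 of the 4 MamBo38 libraries (both treated ones and 1 untreated) stand apart from the other 8 libraries, which share a code.

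Total counts ranged from 17040454 to 27127662. Levels are given as CPM, the counts of a gene scaled to a common library size by the TMM method, and 3 counts, taken as the detection floor, correspond to between 0.114 and 0.179 CPM. Mouse Erbb2, which is not the transgene, was at 117 CPM or more in the HER2-positive libraries and at 31.6 CPM or less in the HER2-negative ones. Marker sums set the epithelial state of each library beside the results. A sum over 7 luminal markers, among them Krt8, Krt18, Epcam and Cdh1, ran from 2399 to 3772 CPM in the HER2-positive libraries and from 1.78 to 2.67 CPM in MamBo38. In MamBo43 TRT it stood at 1766 CPM in the library with 30 days of withdrawal and at 290 CPM in the 60-day library. Of the 7, Krt19 stayed under the floor in every library. A sum over 7 mesenchymal markers ran the other way, from 76.3 to 362 CPM in the HER2-positive and from 6451 to 8512 CPM in the HER2-negative libraries. In such bulk libraries, fewer cells of a type and less RNA per cell cannot be told apart.

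The label of milk secretion held in part. The caseins Csn1s1, Csn1s2a and Csn2 were read in every HER2-positive library, whereas Wap, the whey acidic protein itself, had 0 counts in all 11 libraries and Lalba, the lactose synthase cofactor, did not exceed 0.0487 CPM in untreated AG3 or 0.0544 CPM in MamBo89. Lcn2 and Ltf are also neutrophil granule genes. The 11 neutrophil and myeloid markers summed to between 0.274 and 2.72 CPM in the HER2-positive libraries and to between 0.441 and 1.35 CPM in the HER2-negative ones, and Ptprc, Csf3r, Elane, Mpo, Ngp and Cybb were at 0 in every HER2-positive library.

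Promoters were taken from RefSeq on GRCm38.p6 as 250 bases before and 50 after each start, and those of 7 members matched (all but Csn3 and Ly6d). Both strands were searched for the STAT motif TTCNNNGAA, the C/EBP motif TTGCNNAA and the AP-1 motif TGACTCA. Among 32851 promoters of the same length, 8.30% held the STAT motif, 10.8% the C/EBP motif and 5.20% the AP-1 motif. Matches fell in the promoters of Lcn2, Ltf and Bpifb1, and these are shown as the 250 bases before the start, 5′ to 3′ on the gene's strand, with the match in capitals. The Lcn2 bases are chr2:32387740-32387989 on the minus strand, those of Ltf chr9:111019042-111019291 on the plus strand, and those of Bpifb1 chr2:154200130-154200379 on the plus strand, before the second start that RefSeq lists inside that gene.
Lcn2: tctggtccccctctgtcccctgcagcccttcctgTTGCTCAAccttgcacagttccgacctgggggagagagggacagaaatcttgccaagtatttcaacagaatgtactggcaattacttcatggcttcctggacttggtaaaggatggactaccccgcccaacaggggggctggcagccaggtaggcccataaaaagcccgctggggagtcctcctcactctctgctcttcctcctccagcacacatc
Ltf: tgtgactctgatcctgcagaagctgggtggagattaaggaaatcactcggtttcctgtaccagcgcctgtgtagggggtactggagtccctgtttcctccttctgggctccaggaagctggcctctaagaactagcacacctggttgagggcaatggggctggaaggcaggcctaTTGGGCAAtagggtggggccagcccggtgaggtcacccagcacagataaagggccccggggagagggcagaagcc
Bpifb1: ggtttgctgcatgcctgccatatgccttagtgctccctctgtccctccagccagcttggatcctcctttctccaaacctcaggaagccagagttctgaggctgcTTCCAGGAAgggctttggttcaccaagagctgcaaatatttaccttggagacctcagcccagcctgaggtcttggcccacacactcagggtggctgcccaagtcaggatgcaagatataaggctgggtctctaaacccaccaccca
The Lcn2 match to the C/EBP motif began at position -216 from the start and the Ltf match, which lies on the other strand, at -75. The Bpifb1 match to the STAT motif began at -146. The first Bpifb1 promoter and those of Wfdc18, Wfdc2, Muc1 and Mfge8 held none of the 3 motifs in this window.

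Every member was lower on average in the HER2-negative than in the HER2-positive libraries. The fit across 12364 genes placed all 9 past the threshold used for a call, an adjusted p under 0.1 and a change of at least 1 on the log2 scale, in the lower direction, where 17.0% of all genes tested were called. Since these contrasts chose the members, nothing is read from that count. For 8 of 9 members the groups did not overlap, as was the case in this direction for 17.2% of the genes tested. The median difference was -7.33 on the log2 scale over the members and -0.04 over all genes tested. The luminal and mesenchymal marker sums moved with the same groups, and their part in the members' levels was not tested.

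**Figure D1:**
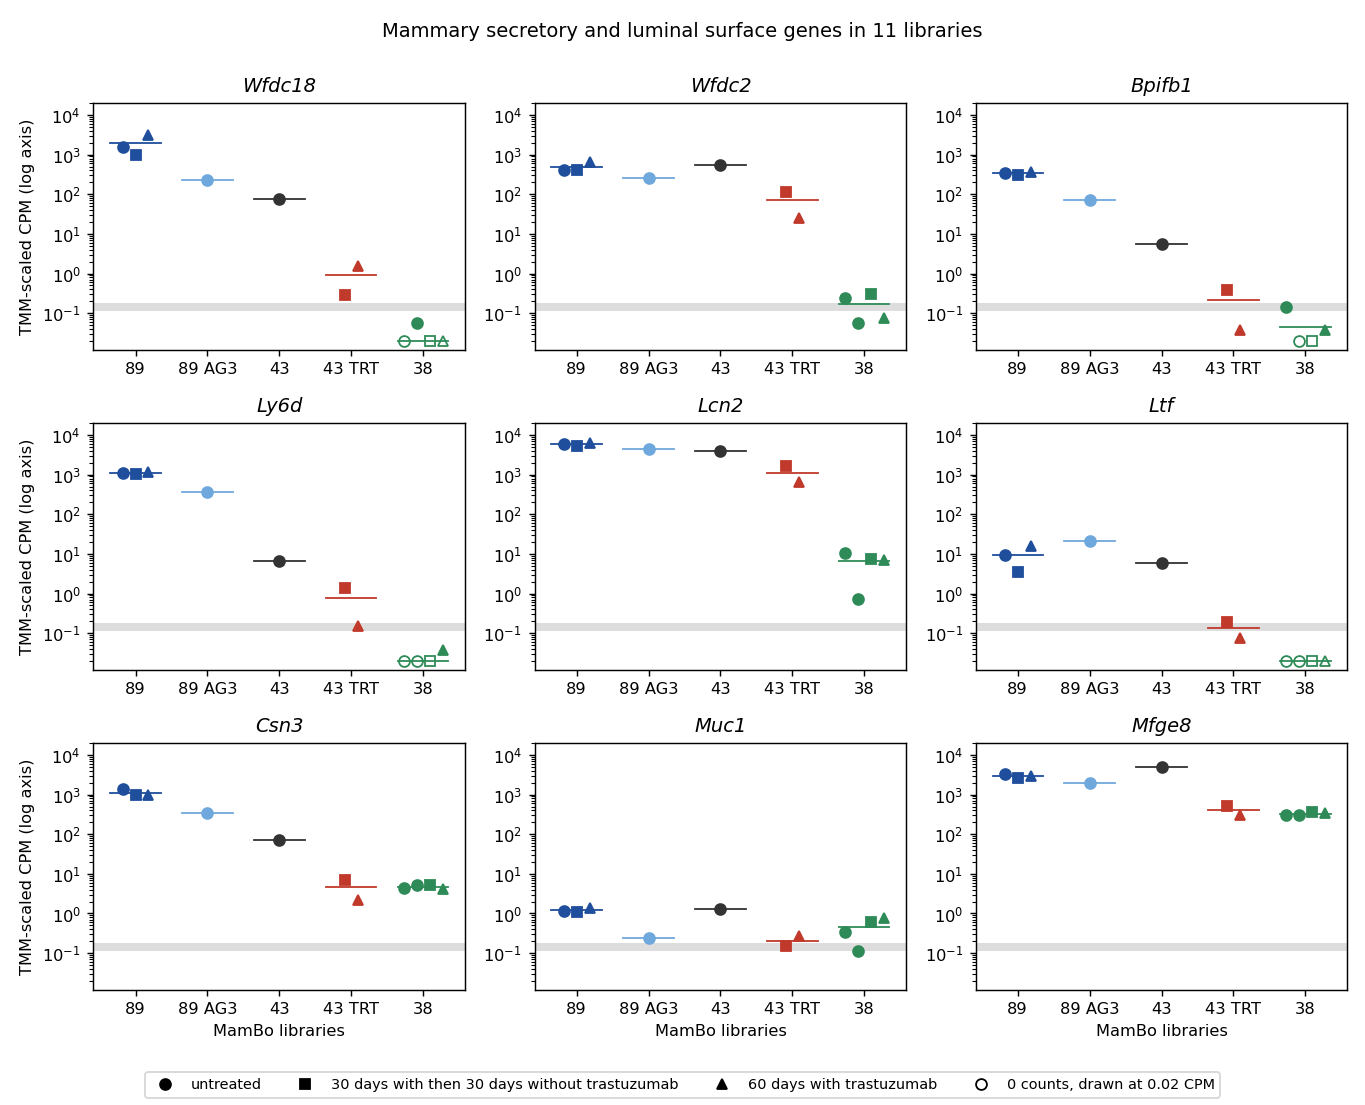
TMM-scaled CPM (log axis) of the 9 genes in each of 11 libraries, grouped as MamBo89 (n = 3), MamBo89 AG3 (n = 1), untreated MamBo43 (n = 1), MamBo43 TRT (n = 2) and MamBo38 (n = 4). Symbols mark the trastuzumab schedule, short lines the group means, and the grey band 3 counts (0.114 to 0.179 CPM). Open symbols, and the means of groups near 0, are drawn at 0.02 CPM. Lcn2 was at 652 CPM or more in MamBo43 TRT, whereas Ltf lay near the band there.

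Lcn2 was the member with the highest level per length in every group except MamBo38. In MamBo89 it stood at 5898 CPM untreated, 5181 CPM after withdrawal (30 days with trastuzumab, then 30 without), and 6335 CPM after 60 days. AG3 was at 4511 CPM and untreated MamBo43 at 3918 CPM. In MamBo43 TRT it was at 1612 CPM after withdrawal and 652 CPM after 60 days. The 4 MamBo38 libraries were at 10.6 and 0.723 CPM untreated, 7.34 CPM after withdrawal, and 7.21 CPM after 60 days. The lines thus formed 3 tiers, and the highest MamBo38 library was well below the lowest MamBo43 TRT library. The untreated MamBo38 library at 0.723 CPM is the only one of that line that shares its code with MamBo89 and MamBo43. Over the HER2 groups the log2 difference was -3.76 ± 1.58 (SE), a wide error that goes with the spread inside the HER2-negative group (382 ± 656 CPM, SD, n = 6) against 5169 ± 986 CPM (SD, n = 5). Without the MamBo43 withdrawal library the difference was -5.24.

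Slc22a17, which codes for the proposed lipocalin 2 receptor, was low in all libraries. It ran from 1.46 to 7.94 CPM in the HER2-positive and from 0 to 0.0767 CPM in the HER2-negative libraries (log2 fold change -7.92, edgeR quasi-likelihood adjusted p = 3.08e-05). In the same family Apod, which codes for apolipoprotein D, rose in the HER2-negative libraries, from a mean of 0.0410 to 22.1 CPM (adjusted p = 0.000116). The lipocalin list of 20 genes had 3 with enough counts for the test, of which 2 were called lower and 1 higher, where 15.8% of all genes tested were called higher.

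Wfdc2 followed an order close to that of Lcn2. MamBo89 held 421, 418 and 653 CPM in the untreated, the withdrawal and the 60-day library, AG3 255 CPM and untreated MamBo43 556 CPM. MamBo43 TRT held 117 CPM after withdrawal and 25.3 CPM after 60 days, and MamBo38 between 0.0556 and 0.298 CPM, which is 1 to 5 counts. Untreated MamBo43 lay inside the range of MamBo89, and the 2 MamBo43 TRT libraries lay between the HER2-positive libraries and MamBo38. Pooled counts gave a ratio of MamBo89 to MamBo38 of 3117 (95% interval 1823 to 5856, counting error only) and the HER2 groups differed by -4.28 ± 1.64 (SE) on the log2 scale, or by -6.45 without the MamBo43 withdrawal library.

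Wfdc18 spread further. The untreated, withdrawal and 60-day libraries of MamBo89 were at 1596, 991 and 3171 CPM, so that this was the member whose MamBo89 libraries differed by more than 3-fold at a high level. AG3 was at 233 CPM and untreated MamBo43 at 74.6 CPM. MamBo43 TRT was at 0.294 CPM after withdrawal (6 counts) and 1.57 CPM after 60 days (41 counts), the reverse of the order seen for Lcn2 and Wfdc2. The 4 MamBo38 libraries had 1 count between them, against 109971 in MamBo89. The pooled ratio was 157280, but with 1 count its 95% interval ran from 28228 to 6.21e+06.

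In the rest of the whey acidic protein family, 2 of 19 genes in the table could be tested and both were called lower in the HER2-negative libraries. Wfdc3 fell from a mean of 165 to 1.06 CPM (log2 fold change -7.28, edgeR adjusted p = 5.94e-06). Slpi, the secretory leukocyte protease inhibitor, fell from 1470 ± 908 CPM (SD, n = 5) to 256 ± 110 CPM (SD, n = 6), a log2 difference of -2.53 (edgeR adjusted p = 0.000419). MamBo38 kept Slpi at 314 CPM on average, while its Wfdc18 and Wfdc2 were at or near the floor.

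Bpifb1 and Ly6d were high in MamBo89 and low in untreated MamBo43. Bpifb1 stood at 353, 310 and 368 CPM in the untreated, withdrawal and 60-day MamBo89 libraries, 71.2 CPM in AG3 and 5.56 CPM in untreated MamBo43. It reached 0.392 and 0.0384 CPM in MamBo43 TRT and at most 0.144 CPM (3 counts) in MamBo38. Ly6d stood at 1079, 1018 and 1159 CPM in the same 3 MamBo89 libraries, 357 CPM in AG3 and 6.46 CPM in untreated MamBo43. Its MamBo43 TRT libraries were at 1.37 and 0.153 CPM, and MamBo38 had 1 count in 4 libraries. For both genes the step from MamBo89 to untreated MamBo43, inside the HER2-positive group, was a large one, by pooled counts 62.1-fold for Bpifb1 (95% interval 52.7 to 73.8) and 168-fold for Ly6d (144 to 197).

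Of the 4 other BPI fold genes tested, Bpifb4 and Lbp were called lower in the HER2-negative libraries and Pltp, the phospholipid transfer protein gene, was called higher. Bpifb4 fell from a mean of 461 to 1.07 CPM (edgeR adjusted p = 0.00110), and like Bpifb1 it was low in untreated MamBo43, at 6.73 CPM. Pltp rose from 0.229 to 52.2 CPM (edgeR adjusted p = 1.23e-06). Of the 10 Ly6 family genes tested, 3 were called lower and 1 higher. Lypd3 had the largest fall, from 20.4 to 0.697 CPM (edgeR adjusted p = 0.00688), and Plaur, which codes for the urokinase receptor, rose from 15.1 to 66.0 CPM (edgeR adjusted p = 0.000245). The direction thus differed between members of the same family.

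Csn3 was at 1370, 1006 and 985 CPM in the untreated, withdrawal and 60-day MamBo89 libraries, 337 CPM in AG3 and 69.8 CPM in untreated MamBo43. MamBo43 TRT held 6.86 CPM after withdrawal and 2.22 CPM after 60 days. MamBo38 held between 4.06 and 5.37 CPM in its 4 libraries, 90 to 107 counts each, which is well above the floor. The MamBo43 TRT libraries therefore lay on either side of MamBo38. Its exon windows of 75 bases were shared with another gene, Pmf1, at 0.0716%, and for the other 8 members at 0%.

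The other caseins did not keep this low level. Csn1s1 fell from a mean of 215 CPM in the HER2-positive to 0.249 CPM in the HER2-negative libraries (log2 fold change -9.61, edgeR adjusted p = 5.42e-05), with 1 count in the 4 MamBo38 libraries. Csn2 and Csn1s2a had 0 counts in MamBo38. Both were called lower over the HER2 groups, at log2 fold changes of -8.40 (edgeR adjusted p = 0.000114) and -8.55 (edgeR adjusted p = 0.000238). Of the 13 milk protein and milk fat globule genes tested, 8 were called lower and 1 higher, with a median of -2.23 on the log2 scale. The gene called higher was Xdh, whose xanthine oxidoreductase coats milk fat droplets and also serves purine breakdown outside the gland, at 634 ± 183 CPM (SD, n = 6) against 82.1 ± 26.0 CPM (SD, n = 5) (edgeR adjusted p = 1.65e-05).

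The prolactin axis was part of the same list. Prlr, the prolactin receptor gene, fell from a mean of 46.5 to 0.221 CPM (edgeR adjusted p = 0.000117) and Elf5, a transcription factor gene of alveolar cells, from 65.2 to 0.130 CPM (edgeR adjusted p = 1.61e-05). Stat5a fell from 212 to 33.8 CPM (log2 fold change -2.65, edgeR adjusted p = 0.000204) and Stat5b from 163 to 34.9 CPM (log2 fold change -2.23, edgeR adjusted p = 0.000215). Prlr and Elf5 were thus at 0.690 CPM or less in HER2-negative libraries, while both STAT5 genes were still read there at 19.8 CPM or more.

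Ltf was a low gene throughout. It stood at 9.53, 3.50 and 15.8 CPM in the untreated, withdrawal and 60-day libraries of MamBo89, and at 6.03 CPM in untreated MamBo43. AG3 had the highest level, 21.2 CPM. MamBo43 TRT had 4 and 2 counts, and all 4 MamBo38 libraries had 0, so that MamBo89 was at least 63.6-fold higher, with the floor of 3 counts per library in place of 0. Trf, the transferrin gene and the nearest relative of Ltf in the list, was on another scale, at 44074 ± 16740 CPM (SD, n = 5) in the HER2-positive and 449 ± 890 CPM (SD, n = 6) in the HER2-negative libraries (edgeR adjusted p = 0.0227). Its MamBo38 mean was 1.19 CPM. Of 8 genes of transferrins and iron uptake tested, 4 were called lower and 3 higher. The largest rise was in Ftl1, a ferritin light chain gene, from 982 to 5936 CPM (edgeR adjusted p = 2.09e-06).

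Mfge8 was read in every library at 302 CPM or more. The untreated, withdrawal and 60-day libraries of MamBo89 were at 3407, 2652 and 3024 CPM, AG3 at 2016 CPM, and untreated MamBo43 was the highest of all at 5076 CPM. MamBo43 TRT was at 513 and 302 CPM and MamBo38 between 310 and 360 CPM. The HER2 groups stood apart with a narrow error, at a log2 difference of -3.19 ± 0.25 (SE). The integrins that MFGE8 binds did not share 1 direction. Itgb3 fell from 132 ± 40.5 CPM (SD, n = 5) to 5.16 ± 0.520 CPM (SD, n = 6) (log2 fold change -4.68, edgeR adjusted p = 3.50e-07), Itgav differed by -0.05 ± 0.14 (SE) on the log2 scale (edgeR adjusted p = 0.794) and Itgb5 by 0.68 ± 0.44 (SE) (edgeR adjusted p = 0.215). Among the 10 genes of this list, 3 were called lower and 3 higher, F5 having the largest rise, from 0.0762 to 6.48 CPM (edgeR adjusted p = 0.00276).

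Muc1 went against the label of luminal surface genes, since it was hardly read in any library. It had between 19 and 26 counts in the MamBo89 libraries (1.11 to 1.41 CPM), 34 counts in untreated MamBo43 (1.33 CPM) and 5 in AG3 (0.243 CPM). MamBo43 TRT had 3 and 7 counts, and MamBo38 between 2 and 20 counts (0.111 to 0.759 CPM). It was the member whose HER2 groups overlapped, with AG3 among the HER2-negative values. Of the other mucins, 3 could be tested and 2 were called lower, Muc15 with the largest fall, from 5.54 to 0.0419 CPM (edgeR adjusted p = 5.85e-05).

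Other surface genes of luminal cells moved widely. Of 24 luminal cell surface and apical genes tested, 19 were called lower in the HER2-negative libraries and 1 higher, with a median of -3.64 on the log2 scale. Epcam fell from 639 to 31.6 CPM (edgeR adjusted p = 0.0554) and Cdh1, the E-cadherin gene, from 906 to 46.2 CPM (edgeR adjusted p = 0.0290). Anxa8 was the gene called higher, at 37.9 against 11.6 CPM (edgeR adjusted p = 0.0879). Of 8 secreted defence genes tested, 4 were called lower, led by Chil1, a chitinase-like protein gene, from 271 to 0.873 CPM (edgeR adjusted p = 0.000147).

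**Figure D2:**
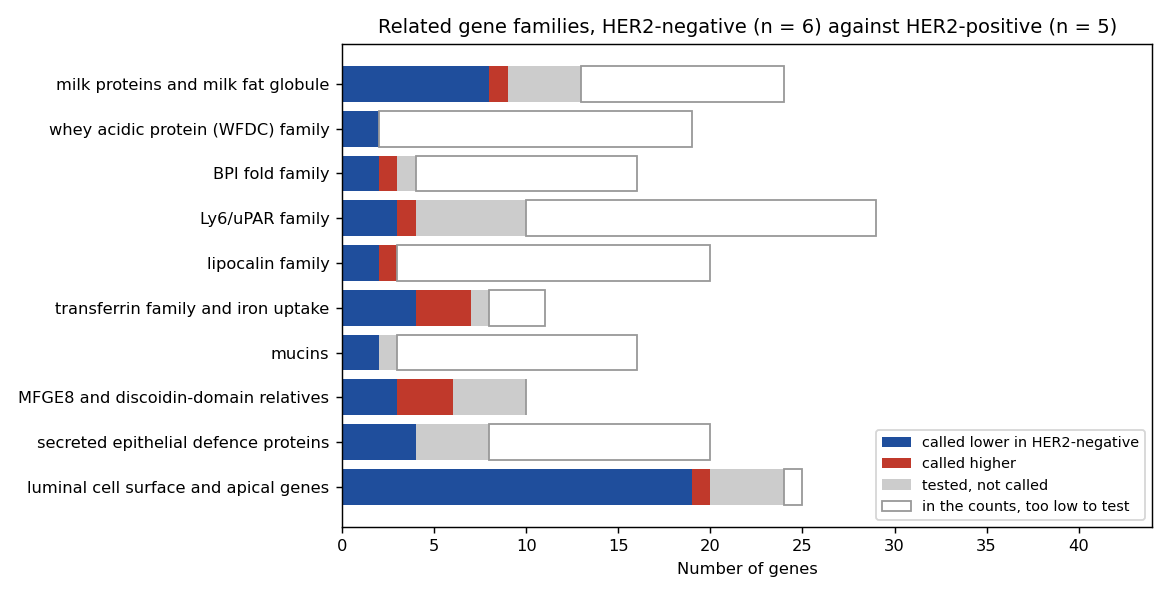
Number of genes (horizontal axis) in 10 related lists that were called lower, called higher or not called in the 6 HER2-negative against the 5 HER2-positive libraries, with the genes too low to test as open bars. Luminal surface genes were called lower in 19 of 24, whereas the MFGE8 relatives were split, 3 lower and 3 higher.

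Levels were compared between members per kilobase of exon. In MamBo89 the order was led by Lcn2 with a mean of 2213 CPM per kb, Wfdc18 with 1573 and Ly6d with 1459, whose ranges over the 3 libraries overlapped for Lcn2 and Wfdc18 and for Wfdc18 and Ly6d. Mfge8 at 645 and Wfdc2 at 436 CPM per kb also overlapped. Csn3 (270 CPM per kb), Bpifb1 (a mean of 95.04), Ltf (2.78) and Muc1 (0.522) followed without overlap between neighbours. In MamBo38 the order turned over. Mfge8 led with 70.3 CPM per kb, 94.6% of the members' sum, ahead of Lcn2 at 2.47 and Csn3 at 1.15 CPM per kb, which overlapped. Members took between 1.17% and 1.61% of all counts in MamBo89 and between 0.0317% and 0.0363% in MamBo38.

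**Figure D3:**
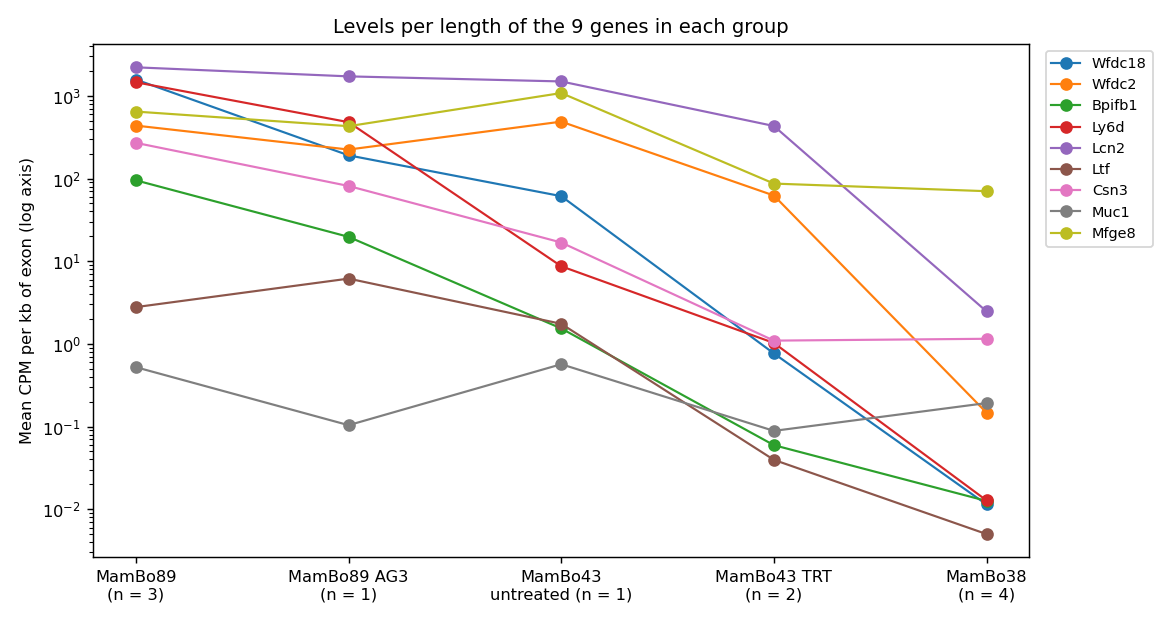
Mean CPM per kilobase of exon (log axis) of the 9 genes in 5 groups of libraries, joined by lines to follow each gene, with n libraries under each group. Ltf, at 0 counts in MamBo38, is drawn at 0.005. Lcn2 led in 4 groups and Mfge8 in MamBo38.

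MamBo38 and MamBo89 are the lines with several libraries each. All 9 members were called lower in MamBo38 in the fit of 12647 genes, of which 20.6% were called lower, and this comparison shares libraries with the one over HER2 status. Beside the ratios given above, MamBo89 exceeded MamBo38 by 872-fold for Lcn2 in pooled counts (95% interval 802 to 950), 243-fold for Csn3 (219 to 269), 9.28-fold for Mfge8 (9.16 to 9.40) and 2.57-fold for Muc1 (1.71 to 3.90), intervals that cover counting error only. In the related lists 62 genes were called lower and 17 higher, while 20.8% of all genes tested were called higher. The single MamBo38 library that shares its code with MamBo89 was below all 3 MamBo89 libraries for each member, at 310 CPM for Mfge8, 5.23 for Csn3, 0.723 for Lcn2 and 0.111 for Muc1. For 37.2% of the 12647 genes, every MamBo38 library lay below every MamBo89 library, and the share for that single library is not given. Nothing is read from the members' position, since their levels chose them. Line, tumor of origin and HER2 status cannot be told apart in this comparison.

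All tumor A libraries are HER2-positive. With the tumor of origin as a term, the HER2 contrast therefore rests on the untreated MamBo43 library against the HER2-negative ones. The members' differences then ranged from -7.73 for Wfdc18 to -1.83 for Muc1, with Wfdc2 at -4.55 and Lcn2 at -3.37. With the library code as a term 8 of 9 passed the threshold, Lcn2 (-2.78) falling short, and 1937 of 12364 genes were called lower. With the trastuzumab schedule as a block all 9 passed, and 2088 of 12364 genes were called lower. The differences of Wfdc2 (-7.37) and Lcn2 (-6.60) were larger there.

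MamBo43 was the line sequenced before and after most of its cells lost HER2 under trastuzumab. The paper reports that a minor share of the treated cells stayed HER2-positive. With 1 untreated library there is no test, and a gene was counted where both MamBo43 TRT libraries lay at least 2-fold from it on log2(CPM + 0.5). All 9 members were lower by this rule, as were 15.6% of the 12241 genes that reached 1 CPM. Of 90 related genes counted, 50 were lower and 11 higher, where 12.8% of all genes were higher.

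What remained differed by member. After withdrawal, Lcn2 stood at 41.1% of the untreated level, Ly6d at 21.3% and Wfdc2 at 21.0%, while Mfge8 stood at 10.1%, Bpifb1 at 7.06%, Ltf at 3.25% and Wfdc18 at 0.394%. After 60 days, Lcn2 stood at 16.6%, Mfge8 at 5.95%, Wfdc2 at 4.56%, Ly6d at 2.38%, Wfdc18 at 2.11%, Ltf at 1.27% and Bpifb1 at 0.690%. Csn3 was at 9.82% and 3.19%, with MamBo38 lying between both levels. The withdrawal library was the higher one for 7 of 9 members, the others being Wfdc18 and Muc1. The share of all genes higher there is not given, so nothing is read from this count. Some of these orders rest on few counts, with 4 and 2 for Ltf, 8 and 1 for Bpifb1, and 3 and 7 for Muc1.

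The luminal markers above the floor were also higher in the withdrawal library, to unequal extents, and their part in the members' levels was not tested. Epcam stood at 25.1% against 4.87% and Cdh1 at 26.0% against 9.31% of the untreated level. Krt8 stood at 73.3% against 10.1% and Krt18 at 84.2% against 10.1%. Ehf was at 17.5 against 10.8 CPM, from 306 CPM untreated, and Elf3 at 5.10 against 1.88 CPM, from 21.2 CPM. Csn1s1, Csn2 and Csn1s2a had the order of Wfdc18, whereas Csn3 had that of Lcn2. Csn1s1 was at 0.733% in the withdrawal and 3.56% in the 60-day library, Csn2 at 0.829% and 6.06%, and Csn1s2a at 0.971% and 7.60%. These rest on few counts, 5 and 31 for Csn1s1, 3 and 28 for Csn2, and 1 and 10 for Csn1s2a. Prlr was at 2.21% and 2.39%. Each schedule had 1 MamBo43 library, so schedule and library cannot be told apart.

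**Figure D4:**
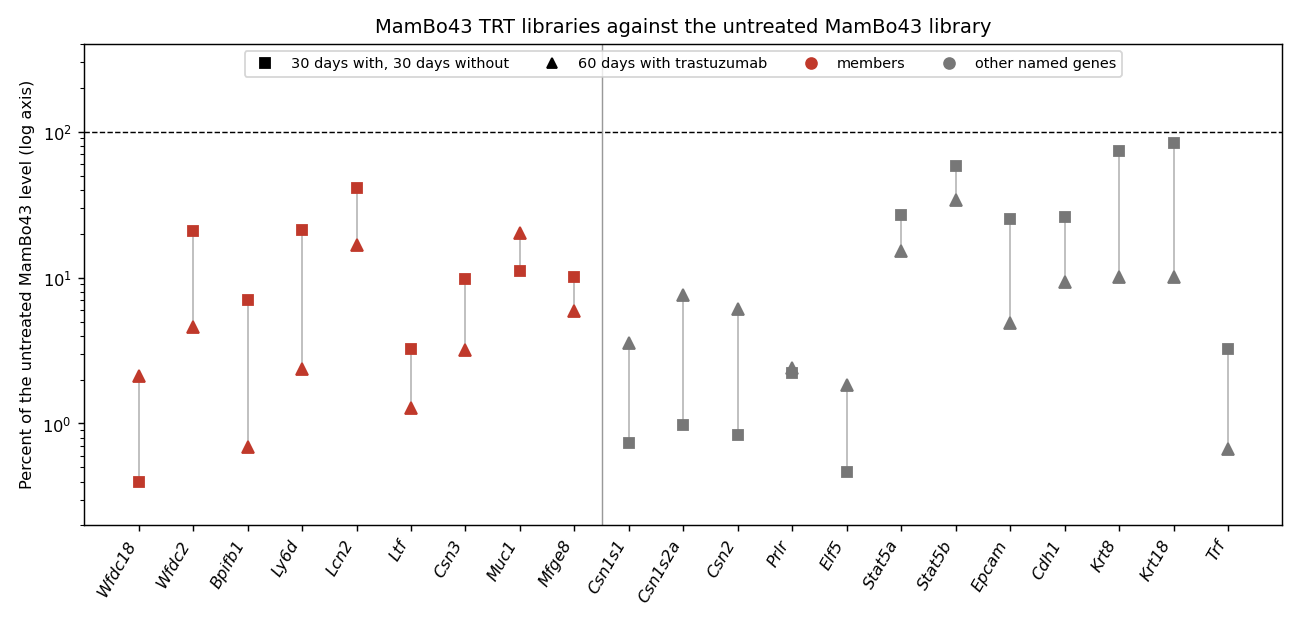
Levels in both MamBo43 TRT libraries as a percent of the untreated MamBo43 library (log axis), for the 9 members (red) and 12 other genes (grey). Squares mark 30 days with and 30 days without trastuzumab, triangles 60 days with it, and the dashed line 100%. Lcn2, Wfdc2, Ly6d, Epcam and Cdh1 have the square on top, Wfdc18, Csn1s1, Csn1s2a and Csn2 the triangle.

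Untreated MamBo43 and MamBo89, both HER2-positive, differed by member. By the 2-fold rule 4 members were lower in MamBo43 (Wfdc18, Bpifb1, Ly6d and Csn3), as were 8.09% of 12260 genes, and 0 were higher, as were 10.9% of genes. Pooled counts put MamBo89 at 25.7-fold over MamBo43 for Wfdc18 (95% interval 24.6 to 26.9) and 16.3-fold for Csn3 (15.5 to 17.1). The other 5 members stayed within 2-fold of the nearest MamBo89 library, with Wfdc2, Ltf and Muc1 inside the MamBo89 range, Lcn2 below it and Mfge8 above it. Among 96 related genes counted, 23 were lower and 22 higher in MamBo43. Slpi was among the latter, at 3089 CPM against a MamBo89 mean of 1095 CPM.

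AG3 was below all 3 other MamBo89 libraries for 8 of 9 members and above them for Ltf. The share of all genes in that position is not given, so nothing is read from this count. By the 2-fold rule 5 members were lower (Wfdc18, Bpifb1, Ly6d, Csn3 and Muc1), as were 6.54% of 11979 genes, and 0 were higher, as were 6.29%. As a percent of the MamBo89 mean, AG3 held 12.1% for Wfdc18, 19.9% for Muc1, 20.7% for Bpifb1, 30.1% for Csn3 and 32.9% for Ly6d. It held 51.3% for Wfdc2, 66.6% for Mfge8, 77.7% for Lcn2 and 221% for Ltf. Without the 60-day MamBo89 library, Ltf counted as higher in AG3. The 4 lower members with more than a few counts, Wfdc18, Bpifb1, Ly6d and Csn3, were also the 4 that were lower in untreated MamBo43, and both comparisons share the MamBo89 libraries.

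Several luminal markers and both STAT5 genes were also lower in AG3 than in each other MamBo89 library, to unequal extents. AG3 held 80.2% of the MamBo89 mean for Epcam, 83.0% for Cdh1, 52.1% for Krt8 and 58.3% for Krt18. Of the other luminal markers, Ehf went the other way, at 93.1 CPM in AG3 against 25.8 to 49.1 CPM in MamBo89. Elf3 lay inside the MamBo89 range (13.3 against 12.5 to 22.1 CPM), and Krt19 was under the floor. For the prolactin axis AG3 held 81.4% for Prlr, 84.5% for Elf5, 55.8% for Stat5a and 66.9% for Stat5b. Prlr lay inside the MamBo89 range (43.4 against 36.1 to 64.3 CPM). Elf5 also lay inside the MamBo89 range, at 64.8 CPM against 57.6 CPM in the withdrawal library, the lowest. The luminal marker sum of 2399 CPM in AG3 lay below all 3 MamBo89 libraries (2946 to 3772 CPM), and its part in the members' levels was not tested. Caseins were below the MamBo89 mean to unequal extents, with Csn1s1 at 33.4%, Csn1s2a at 8.35% and Csn2 at 64.7%, and Slpi was at 89.3%. Csn2 lay inside the MamBo89 range (65.5 against 52.5 to 156 CPM). Of 89 related genes counted, 19 were lower and 4 higher in AG3.

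**Figure D5:**
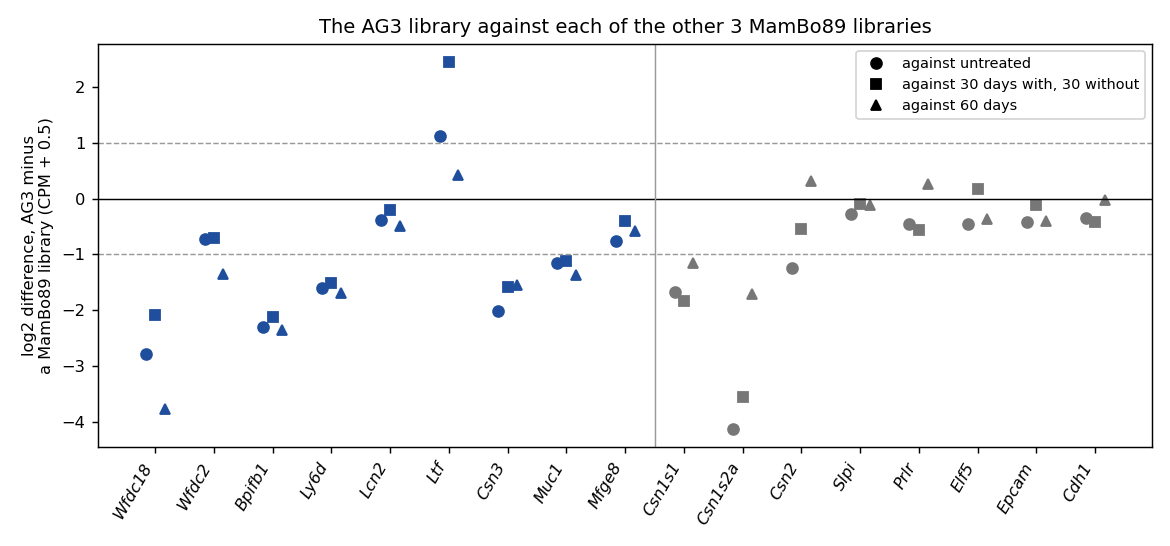
Log2 difference (CPM + 0.5) of the AG3 library minus each of the 3 other MamBo89 libraries for the 9 members (blue) and 8 other genes (grey). Dashed lines mark a 2-fold difference, and symbols the MamBo89 library. Wfdc18, Bpifb1, Ly6d, Csn3 and Muc1 lie below the lower dashed line against all 3, Ltf above 0, and Slpi, Epcam and Cdh1 near 0.

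Trastuzumab was also given to lines whose HER2 state did not change. In MamBo89, 0 of 9 members lay 2-fold or more from the untreated library in both treated libraries, as did 0.273% of 11735 genes in either direction. The largest spread was that of Ltf and Wfdc18, which were lowest in the withdrawal and highest in the 60-day library. Csn3 was lower in both treated libraries (1006 and 985 against 1370 CPM), by less than 2-fold. In MamBo38 only 3 members reached 1 CPM in a library and were counted, and 0 of these 3 were past 2-fold, against 0.0343% of 11661 genes. Whether the response of the members differed between the lines was not tested.

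Likeness of pattern was measured as the root mean square difference of log2(CPM + 0.5), centred per gene, over the 11 libraries, among 12355 other genes. This scale compresses genes below 1 CPM. The genes nearest to Wfdc2 were St14 (0.36) and Spint2 (0.38), a membrane serine protease gene and a gene for an inhibitor of such proteases, where the median gene stood at 4.29. Bpifb1 and Ly6d were both nearest to Sfrp1, a secreted Wnt antagonist gene (0.49 and 0.57), followed by Tspan1 for Bpifb1 (0.65) and Bpifb4 for Ly6d (0.96). Wfdc18 was nearest to Csn1s1 (1.16) and Sfrp1 (1.204). Csn3 was nearest to Tspan1 (0.45) and Tmprss13 (0.58).

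Lcn2 was nearest to Cdh1 (0.86) and Esrp1 (0.90), and Ltf to Bhlhe41 (0.33) and Itgb3 (0.41). Mfge8 was nearest to Tnfrsf18 (0.25) and Rgs11 (0.29), both far lower genes. Muc1, which varied least, was nearest to Wwox (0.20) and Wbp1 (0.22), where the median gene stood at 0.78. Among the members themselves the closest pairs were Bpifb1 with Csn3 (0.74), Wfdc2 with Lcn2 (0.87) and Bpifb1 with Ly6d (0.88).

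The members lie on 7 chromosomes of GRCm38 (GENCODE M21), and none shares exon bases with another annotated gene. Wfdc2 (chr2:164562413-164568510), Bpifb1 (chr2:154190818-154220369) and Lcn2 (chr2:32384633-32388252) are all on chromosome 2. Csn3 is at chr5:87925579-87932665, Wfdc18 at chr11:83709015-83711348, Ly6d at chr15:74762056-74763620, Ltf at chr9:111019271-111042767, Muc1 at chr3:89229057-89233381 and Mfge8 at chr7:79133768-79149060. All are protein-coding, with between 3 exon blocks (Wfdc18 and Ly6d) and 18 (Ltf).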

How the data were processed

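RNA from 11 MamBo cultures was sequenced in 75-nucleotide single-end reads. Per the methods and the submitters' processing notes, the authors aligned reads with STAR 2.5 to mm10 and deposited expected counts from RSEM 1.3.0 as 1 table of 21846 genes. The annotation and any filter on low counts are not given in the sources used here. No value had a fraction, so none was rounded. Reads carry no strand and no molecular identifiers, so counting intervals and the floor of 3 counts cover counting error only.

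CPM used the TMM sizes of all 11 libraries. HER2-negative (n = 6) against HER2-positive (n = 5) and MamBo38 (n = 4) against MamBo89 (n = 3, without AG3) were tested with edgeR 4.0.16 (filterByExpr keeping genes by a count of 10 and a total of 15, glmQLFit, glmQLFTest, Benjamini-Hochberg over all genes tested). A gene was called where its adjusted p was below 0.1 and its change, up or down, was 1 or more on the log2 scale. The SE is the absolute change over the square root of F. Each culture gave 1 library, and p-values measure only the spread between these libraries. Groups with 1 library had no test and used the 2-fold rule on log2(CPM + 0.5). Members and lists were chosen with earlier results of these data known. The text names all members, the called gene with the largest and the smallest log2 fold change of each of 10 related lists, named genes of the prolactin axis, caseins, integrins and luminal markers, and the 2 genes nearest in pattern to each member. A gene that this rule names is not reported here. Krt8, Krt18, Tspan1 and other genes appear as members of marker lists or neighbours, and Lbp and Bpifb4 to complete a count.

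On simulated counts with 200 genes changed 8-fold, the HER2 fit called 92.5% with 10 false calls among 12280 genes, and the fit of MamBo38 against MamBo89 called 95.5% with 6 among 12493. Total counts of 17040454 to 27127662 made counting error small beside the spread between cultures, except for members near the floor. Alternatives were DESeq2 1.42.0, RLE size factors, no filter, tumor of origin, library code or (added later) trastuzumab schedule as a term, a pseudocount of 0.1, a 4-fold rule, and leaving out each library.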

Additional observations from a re-analysis of the deposited data

Results flagged for a closer look

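By Dixon's criterion, 8 of 27 groups of member levels held a sample far from the others, where chance marks about 1 in 20. This is a description: the members were chosen by these levels, the groups share libraries, and the HER2-negative group joins MamBo38 and MamBo43 TRT. In the HER2-negative libraries the highest value stood apart for 5 members, each time in a MamBo43 TRT library. The 60-day library held 1.57 CPM of Wfdc18. The withdrawal library held 117 CPM of Wfdc2, 0.392 CPM of Bpifb1 (8 counts), 1.37 CPM of Ly6d (28 counts) and 513 CPM of Mfge8. These libraries also hold more luminal marker RNA than MamBo38, and its part in the flags was not tested. In MamBo38, Wfdc18 at 0.0556 CPM in the untreated library that shares its code with MamBo89 and Ly6d at 0.0380 CPM in the 60-day library stood apart, each on 1 count where the other libraries had 0. In the HER2-positive libraries, Muc1 in AG3 was the lowest at 0.243 CPM (5 counts), next to 1.11 CPM.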

How the results depend on the processing

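All 9 members stayed called lower over the HER2 groups with RLE size factors, DESeq2, no filter and each library left out, and in MamBo38 against MamBo89 under each alternative run. With the tumor of origin as a term, the contrast rests on the untreated MamBo43 library, and Wfdc2 was at -4.55, Lcn2 at -3.37 and Muc1 at -1.83. With the library code as a term Lcn2 (-2.78) was not called. Leaving out a library moved the difference of Wfdc2 between -6.45 (without the MamBo43 withdrawal library) and -4.00, and that of Lcn2 between -5.24 (without the same library) and -3.48. Without the same library, Bpifb1 moved from -11.01 to -12.05, Ly6d from -11.42 to -13.79 and Ltf from -7.75 to -8.86, and without the 60-day MamBo43 library Wfdc18 moved from -11.78 to -13.99. Related genes called higher in the HER2-negative libraries numbered 17 with no filter, against 11, more genes being tested. Under a 4-fold rule, 2 members were lower in AG3 (Wfdc18 and Bpifb1) in place of 5, and 6 in MamBo43 TRT in place of 9. Leaving out 1 library, members higher in AG3 numbered 0 to 1, members lower under trastuzumab in MamBo89 0 to 1 and members higher under trastuzumab in MamBo38 0 to 1. The 1 arose without the 60-day MamBo89 library for the first 2 counts (Ltf in both) and without the untreated MamBo38 library that shares its code with the treated ones for the last (Lcn2). The labels give no replicate numbers. A fit with the trastuzumab schedule as a block, chosen after seeing the data, also called all 9 members lower in both comparisons, with Wfdc2 at -7.37, Lcn2 at -6.60, Wfdc18 at -12.69 and Ly6d at -12.56 over the HER2 groups. The fold changes of Wfdc18, Bpifb1, Ly6d and Ltf rest on few or 0 counts in MamBo38.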
